A study of Mus musculus with 3 samples.

Results

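The genes described here are 10 members of the CC chemokine system that act on monocytes and eosinophils: the ligands *Ccl2*, *Ccl3*, *Ccl4*, *Ccl6*, *Ccl7*, *Ccl8*, *Ccl9*, and *Ccl11* and the receptors *Ccr1* and *Ccr2*. They were chosen by name, as 10 of the 32285 genes in the count files, and all 10 were detected at every time point. The cells came from full-thickness dorsal wounds of adult male C57BL/6J mice, taken 3, 7, and 14 days post injury, with tissue of several wounds pooled into each droplet library and no unwounded skin compared here. No allele or agent was named for any of the 3 groups, which share the strain, and the number of mice behind a library was not given in the sources used here. With 1 library per day there were no replicates and no test between days was possible, so the 95% intervals given below cover counting error only and a difference between days is a difference between libraries.

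CC chemokines are small secreted proteins that bind G protein-coupled receptors on leukocytes and guide their movement along a gradient. *Ccr2* is the receptor by which inflammatory monocytes leave the bone marrow and enter injured tissue, and its main ligands are *Ccl2* and *Ccl7*. *Ccr1*, carried by neutrophils, monocytes, and macrophages, binds *Ccl3*, *Ccl6*, *Ccl7*, and *Ccl9*, whereas *Ccl11* is eotaxin, the ligand that draws eosinophils through *Ccr3*. In skin wounds, monocytes recruited in this way become most of the early macrophages of the repair tissue.

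The ligand genes lie in 2 groups on chromosome 11 and the receptors on chromosome 9 of the GRCm38 (mm10) assembly, by the GENCODE vM21 annotation. The first group, on the plus strand, holds of these genes, in order, *Ccl2* (chr11:82035571-82037453), *Ccl7* (chr11:82045712-82047525), *Ccl11* (chr11:82057823-82062955), and *Ccl8* (chr11:82115185-82116799). The second holds, of these genes, *Ccl9* (chr11:83572919-83578636), *Ccl6* (chr11:83587882-83593087), and *Ccl3* (chr11:83647844-83649355) on the minus strand, and *Ccl4* (chr11:83662584-83664683) on the plus strand. *Ccr1* (chr9:123962124-123968692, minus strand) and *Ccr2* (chr9:124101950-124113557, plus strand) lie 133 kb apart. Many of these genes arose by duplication, and how reads that match 2 copies were split was not tested, so levels are compared between cells and days and never between genes.

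*Ccl6* and *Ccl9*, the pair whose levels followed each other most closely among the minus-strand ligands, had related sequence at their start sites. Their promoter windows, 250 bases before to 50 after the RefSeq start on GRCm38.p6, both read on the minus strand, are shown with capitals marking runs of 10 or more bases that the 2 windows share exactly. *Ccl8*, which differed most between days of the ligands compared in macrophage-like cells, is shown with the letters TATAAA in capitals, on the plus strand.
Ccl6 (chr11:83593038-83593337): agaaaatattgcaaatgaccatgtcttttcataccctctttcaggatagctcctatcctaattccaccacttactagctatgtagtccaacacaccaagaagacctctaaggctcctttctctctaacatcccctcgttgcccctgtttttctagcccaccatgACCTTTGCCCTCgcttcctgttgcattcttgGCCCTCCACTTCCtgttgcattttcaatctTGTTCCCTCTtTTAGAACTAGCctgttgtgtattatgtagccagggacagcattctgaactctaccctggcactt
Ccl9 (chr11:83578587-83578886): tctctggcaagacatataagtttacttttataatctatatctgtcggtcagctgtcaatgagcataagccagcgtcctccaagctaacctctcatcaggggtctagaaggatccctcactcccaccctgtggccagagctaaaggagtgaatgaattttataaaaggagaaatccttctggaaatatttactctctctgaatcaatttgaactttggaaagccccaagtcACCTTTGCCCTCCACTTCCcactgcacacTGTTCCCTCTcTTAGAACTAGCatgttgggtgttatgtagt
Ccl8 (chr11:82114935-82115234): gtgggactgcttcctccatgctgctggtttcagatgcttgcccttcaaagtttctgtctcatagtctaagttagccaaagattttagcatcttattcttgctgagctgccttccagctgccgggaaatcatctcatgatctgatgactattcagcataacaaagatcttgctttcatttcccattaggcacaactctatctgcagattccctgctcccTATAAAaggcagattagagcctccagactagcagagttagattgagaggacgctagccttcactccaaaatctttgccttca
The longest run shared by *Ccl6* and *Ccl9*, GCCCTCCACTTCC, was found on either strand in 6 of the 32851 promoters of the RefSeq table. Of the 10 genes, 6 had a promoter in that table (*Ccl3*, *Ccl6*, *Ccl8*, *Ccl9*, *Ccr1*, and *Ccr2*). TATAAA, searched on both strands, was present in *Ccl8* and *Ccl9* and in 13.6% of all promoters. GAGGAA was present in *Ccl3*, *Ccl8*, and *Ccr1* (28.3% of all promoters), TGANTCA in *Ccl9* (7.81%), and a kappaB motif in *Ccr1* (20.7%). These are matches of letters and not measured binding sites.

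After filtering, 4360, 19590, and 13510 cells remained on Days 3, 7, and 14, with a median of 3530, 3223, and 5897 unique molecular identifiers (UMIs, counted RNA molecules) per cell. Clusters were placed in classes by standard markers, without using the 10 genes. The mesenchymal markers alone followed the study's own clusters of these libraries. Macrophage-like cells made up 62.4%, 45.7%, and 23.7% of cells, and fibroblast-like cells 9.24%, 23.5%, and 49.1%. Of all UMIs, macrophage-like cells held 34.6%, 24.3%, and 12.6%, and fibroblast-like cells 55.4%, 48.7%, and 71.0%. Neutrophil-like cells numbered 863, 1662, and 21, and no level is given for a class with fewer than 50 cells in a library. No cluster carried the eosinophil markers: *Epx*, which encodes eosinophil peroxidase, had 0 UMIs in each library (3 UMIs would be 0.0854, 0.0299, and 0.0307 CPM), *Ccr3* had 32, 63, and 15 UMIs, and 0 cells held 2 of the 6 markers. The eotaxin axis was therefore seen from the ligand side, and these counts allowed no statement on eosinophils themselves. Why no such cells were found was not tested.

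The 10 genes fell into 3 patterns by the class that held their UMIs. *Ccl2*, *Ccl7*, and *Ccl11* came mostly from fibroblast-like cells. *Ccl6*, *Ccl8*, *Ccl9*, and *Ccr2* came mostly from macrophage-like cells. *Ccl3*, *Ccl4*, and *Ccr1* were shared between neutrophil-like and macrophage-like cells, with a smaller neutrophil-like share on each later day.

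**Figure D1:**
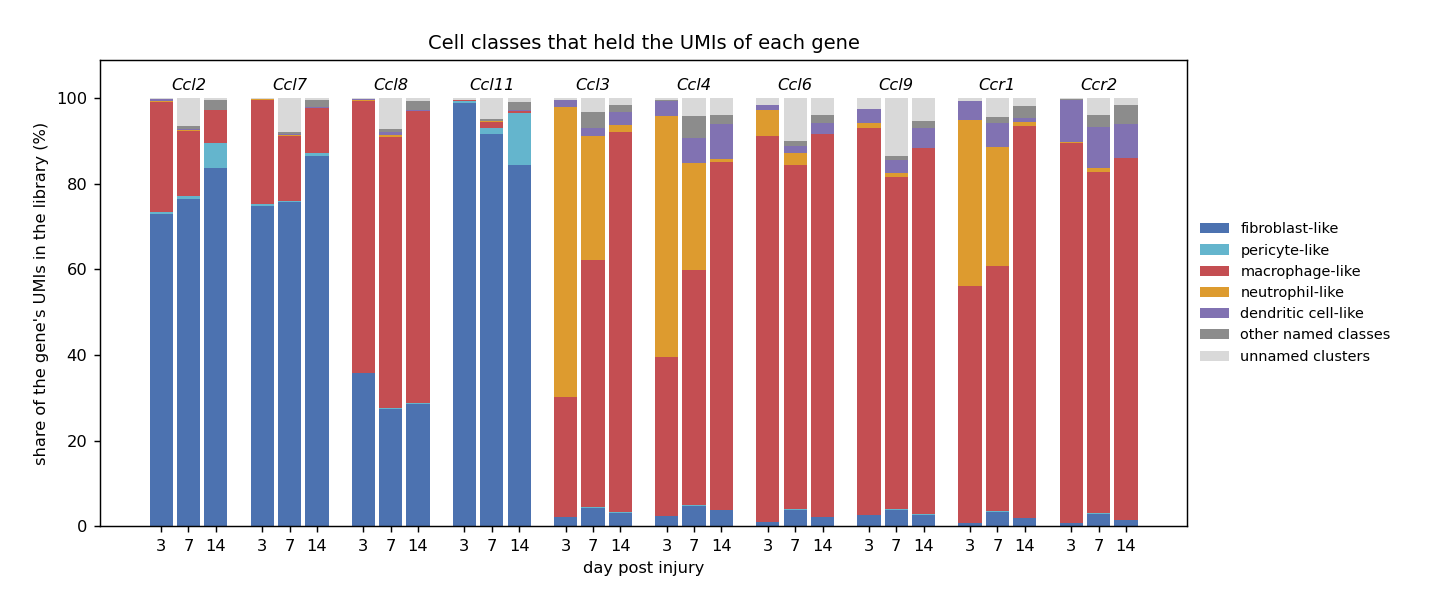
Share of each gene's UMIs (percent of the library, vertical axis) held by each cell class, as stacked bars by day post injury, with unnamed clusters in light grey. Fibroblast-like cells hold 73.1% to 86.4% of *Ccl2* and *Ccl7* UMIs on every day, and macrophage-like cells hold 77.5% to 90.5% of those of *Ccl6* and *Ccl9*.

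*Ccl2* (MCP-1), the principal *Ccr2* ligand, stood at 801, 601, and 1245 counts per 1000000 UMIs (CPM) over all cells on Days 3, 7, and 14. Fibroblast-like cells held 73.1%, 76.5%, and 83.6% of its UMIs, beside 55.4%, 48.7%, and 71.0% of all UMIs. Their levels were 1056 (1041 to 1070), 944 (936 to 953), and 1466 (1457 to 1475) CPM. Macrophage-like cells had 596, 376, and 760 CPM. In both classes *Ccl2* was thus lowest on Day 7 and highest on Day 14, and the intervals of the 3 libraries did not overlap. The fibroblast-like log2 ratio of Day 7 against Day 3, -0.16, ranged from -0.43 to 0.05 over the alternative settings, with a change of sign where library totals were taken without the 50 most abundant genes. The class order was fibroblast-like above macrophage-like on Days 3 and 7, and on Day 7 the macrophage-like interval overlapped that of epithelial cell-like cells (346 CPM), which in turn overlapped that of pericyte-like cells (330 CPM). By Day 14 the highest *Ccl2* level was in pericyte-like cells, the mural cells of small vessels.

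In pericyte-like cells *Ccl2* and *Ccl11* were higher on Day 14 than on Day 7. Their *Ccl2* was 330 (298 to 365) CPM on Day 7 and 4236 (4139 to 4335) CPM on Day 14, a log2 ratio of 3.68, and *Ccl11* was 84.0 and 1330 CPM, a log2 ratio of 3.98. After thinning each cell to 500 UMIs, the share of pericyte-like cells with a *Ccl2* UMI was 8.70% (5.05% to 13.7%) of 184 cells on Day 7 and 50% (45.1% to 54.9%) of 424 cells on Day 14. For comparison, T cell-like cells gave 3.85% and 4.42%, and endothelial cell-like cells 4.2% (2.03% to 7.59%) and 12.03% (8.21% to 16.8%). Before thinning the pericyte-like values were 31.5% and 71.2%, with a median of 5549 and 3905 UMIs per cell. Counted levels were also higher on Day 14 in endothelial cell-like cells. There *Ccl2* was 87.5 and 470 CPM on Days 7 and 14, and *Ccl11* was 3.78 and 69.3 CPM. In epithelial cell-like cells *Ccl2* was 346 (293 to 404) and 284 (270 to 299) CPM, with overlapping intervals. The share of fibroblast RNA in endothelial cell-like and epithelial cell-like cells is not given here, so their levels are counts only. Fibroblast markers summed to 17223 CPM in pericyte-like cells on Day 7 and 13476 CPM on Day 14 (14.3% and 9.50% of their fibroblast-like level), and pericyte markers to 9340 and 9317 CPM. That share of the fibroblast-like level would give 135 and 139 CPM of *Ccl2* and 17.4 and 21.5 CPM of *Ccl11*. For *Ccl7* it would give 195 and 198 CPM, where 152 and 714 CPM were measured, so the Day 7 level of *Ccl7* in pericyte-like cells is not read as expression.

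*Ccl7* (MCP-3), the second *Ccr2* ligand, followed *Ccl2* in its sources. It stood at 959, 881, and 1712 CPM over all cells, and fibroblast-like cells held 74.9%, 75.7%, and 86.4% of the UMIs. On every day *Ccl7* was highest in fibroblast-like cells and next in macrophage-like cells, and no intervals at these first 2 ranks overlapped. With cells classed singly, 81 B cell-like cells had the highest *Ccl2*, *Ccl7*, and *Ccl11* of Day 3. In macrophage-like cells it went from 675 and 550 CPM on Days 3 and 7 to 1442 CPM on Day 14, a log2 ratio of 1.39 against Day 7.

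*Ccl11* (eotaxin-1) came almost wholly from stromal cells. Over all cells it stood at 17.6, 64.8, and 191 CPM, higher on each later day. Fibroblast-like cells held 98.9%, 91.7%, and 84.3% of its UMIs, and pericyte-like cells held 12.2% on Day 14. Macrophage-like cells had 0.0824, 3.62, and 8.81 CPM, from 1, 88, and 108 UMIs. After thinning, 0 of 2722 macrophage-like cells of Day 3 (a share of up to 0.135%), 0.212% on Day 7, and 0.437% on Day 14 had a *Ccl11* UMI, against 1.74%, 6.18%, and 10.0% of fibroblast-like cells. Before thinning, the fibroblast-like values were 32.0%, 47.1%, and 54.7%, with a median of 44033, 10214.5, and 10202 UMIs per cell.

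*Ccl8* (MCP-2), a relative of *Ccl2* and *Ccl7*, differed most between the 3 days of the ligands compared in macrophage-like cells. Its level there was 305 (296 to 315) CPM on Day 3, 978 (965 to 990) CPM on Day 7, and 2659 (2630 to 2688) CPM on Day 14, higher at each step by log2 ratios of 1.68 and 1.44. Between Days 3 and 14 the level differed 8.71-fold. Over the alternative settings the log2 ratios of these steps ranged from 1.37 to 1.93 and from 1.36 to 1.98. The Day 14 level turned on the setting, with 3831 CPM at a resolution of 0.5 and 2560 CPM with at least 500 genes per cell. Macrophage-like cells held 63.5%, 63.4%, and 68.2% of *Ccl8* UMIs, and fibroblast-like cells most of the others, with 108, 211, and 197 CPM. No other class had an interval reaching those 2 on any day. Over all cells *Ccl8* was 166, 374, and 490 CPM, a smaller spread than in macrophage-like cells, which became a smaller share of the libraries over the same days. In sums over all cells, fewer cells of a class and less RNA per cell cannot be told apart. The share of macrophage-like cells with a *Ccl8* UMI after thinning was 6.28% (5.40% to 7.26%), 18.2% (17.4% to 19.0%), and 32.2% (30.6% to 33.8%). Pericyte-like cells gave 2.17% and 2.59% on Days 7 and 14, and before thinning the macrophage-like values were 12.7%, 34.4%, and 50.8%, with a median of 4077.5, 2478, and 3512 UMIs per cell.

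**Figure D2:**
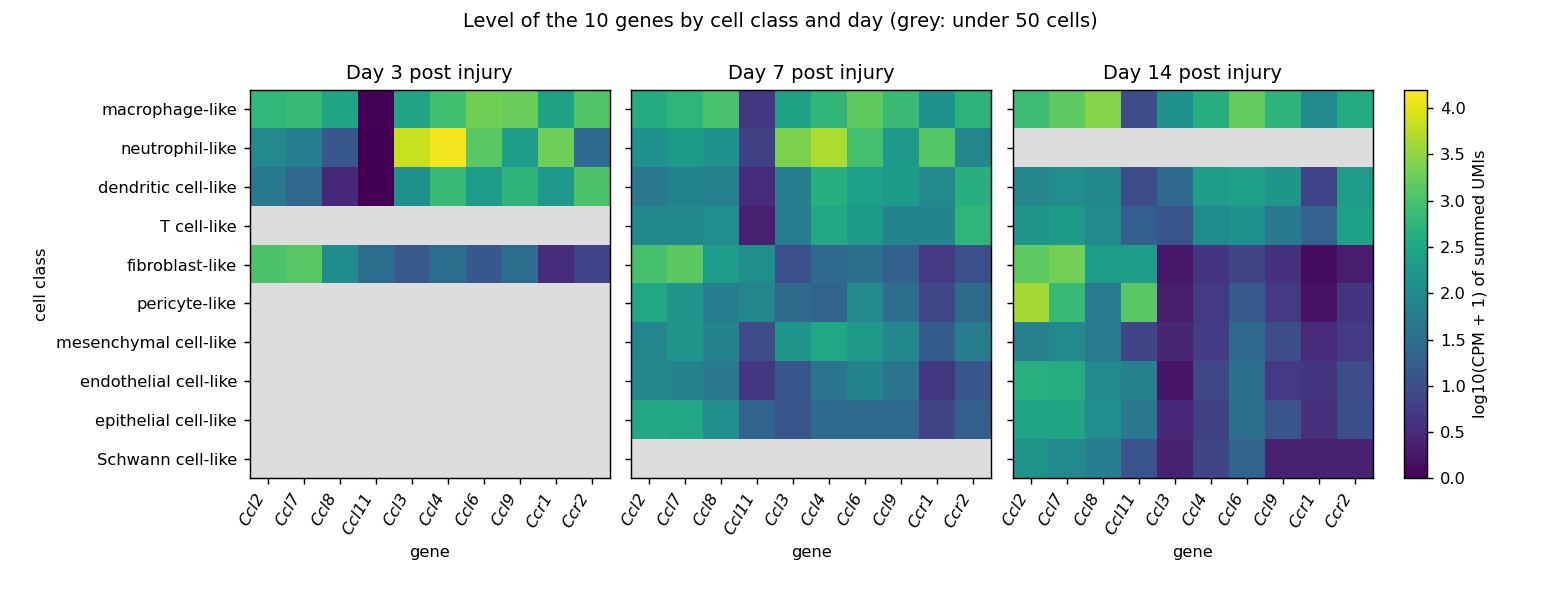
Level of each of the 10 genes (columns) in each cell class (rows), with 1 panel per day, as log10(CPM + 1) of summed UMIs on a color scale, with grey where a class had under 50 cells. *Ccl8* in macrophage-like cells goes from 305 to 2659 CPM between Days 3 and 14, while *Ccr2* in the same cells goes from 1162 to 386 CPM.

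*Ccl3* and *Ccl4* (MIP-1alpha and MIP-1beta), ligands made by activated neutrophils and macrophages, were highest in neutrophil-like cells on Days 3 and 7 among the classes with at least 50 cells. *Ccl3* there was 6951 (6802 to 7104) CPM on Day 3 and 2361 (2279 to 2444) CPM on Day 7, and *Ccl4* was 13125 and 4849 CPM. Both were lower on Day 7, by log2 ratios of -1.56 and -1.44. Neutrophil-like cells held 67.8% of *Ccl3* UMIs on Day 3 and 29.0% on Day 7, and 56.4% and 25.1% of those of *Ccl4*. After thinning, 55.4% and 30.9% of neutrophil-like cells had a *Ccl3* UMI on these days, against 1.49% and 0.239% of fibroblast-like cells. Before thinning, the neutrophil-like values were 65.7% and 37.0%, with a median of 1231 and 713 UMIs per cell. Thinned to 1000 UMIs, the *Ccl3* shares were closer, at 69.2% and 58.1%, with 250 and 1414 shallower cells left out. The make-up of the class differed too, as cluster 24 gave 404 of its cells on Day 3 and 15 on Day 7. Markers of other classes moved with the differences in *Ccl3* and *Ccl4*. In neutrophil-like cells the fibroblast markers summed to 822 CPM on Day 3 and 10183 CPM on Day 7 (8 of 8 higher), the macrophage markers to 619 and 2233 CPM (10 of 12 higher), and the neutrophil markers to 47777 and 33611 CPM (1 of 8 higher). Their part in the lower *Ccl3*, *Ccl4*, and *Ccr1* levels of Day 7 was not tested.

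In macrophage-like cells *Ccl3* was 278, 261, and 133 CPM and *Ccl4* 839, 588, and 412 CPM. In the class sum *Ccl4* was lower on each later day, whereas for *Ccl3* the log2 ratio of Day 7 against Day 3, -0.09, ranged from -0.30 to 0.16 over the alternative settings and changed sign in 2 of them. Neutrophil markers summed to 219, 141, and 45.6 CPM in the same cells, and their share of the neutrophil-like level would give 31.9 and 9.93 CPM of *Ccl3* and 60.2 and 20.4 CPM of *Ccl4* on Days 3 and 7. Within single clusters the order of days was not uniform. From Day 3 to Day 7, *Ccl4* was lower in 4 of 6 clusters and higher in cluster 6 (log2 ratio of 0.35), where *Ccl3* was higher too (1.05). From Day 7 to Day 14, *Ccl3* was lower in 6 of 7 clusters and *Ccl4* in 3 of 7, and both were higher in cluster 13, by 0.89 and 0.95. Over all cells *Ccl3* went through 344, 110, and 18.8 CPM and *Ccl4* through 780, 260, and 63.7 CPM, and 88.8% and 81.2% of their UMIs were in macrophage-like cells by Day 14. A cluster of 52 mast cell-like cells, 32 of them from Day 7 and 18 from Day 14, also held UMIs of both. They held 5, 324, and 4 UMIs of *Ccl3* and 39, 979, and 4 of *Ccl4* on Days 3, 7, and 14, so nearly all came from Day 7, and the cells were too few on any day for a level.

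*Ccl6* and *Ccl9* are rodent ligands of *Ccr1* made by myeloid cells. *Ccl6* was 1951, 1482, and 1534 CPM in macrophage-like cells, which held 90.3%, 80.3%, and 89.3% of its UMIs, and 1342 and 916 CPM in neutrophil-like cells on Days 3 and 7. The Day 14 macrophage-like level turned on the setting, with 927 CPM at a clustering resolution of 0.5 and 1017 CPM at a 5% mitochondrial limit. Its log2 ratio of Day 14 against Day 7 changed sign in 8 of 13 settings and gives no direction. *Ccl9* was 1743 (1719 to 1766), 727 (717 to 738), and 546 (533 to 559) CPM in macrophage-like cells, lower on each later day. Both were highest in macrophage-like cells on every day, except where cells were classed singly without clusters, when T cell-like cells had the highest *Ccl9* on each day and the highest *Ccl6* and *Ccr2* on Day 14. The second rank for *Ccl9* was held by dendritic cell-like cells, with 529, 194, and 165 CPM, and on Day 7 their interval overlapped that of neutrophil-like cells (181 CPM). Over all cells *Ccl6* was 747, 447, and 216 CPM and *Ccl9* 666, 228, and 80.1 CPM.

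Of the receptors, *Ccr2* was a gene of macrophage-like, dendritic cell-like, and T cell-like cells. It was 1162 (1143 to 1181), 520 (511 to 529), and 386 (375 to 397) CPM in macrophage-like cells and 1077 (1024 to 1131), 440 (418 to 462), and 199 (181 to 219) CPM in dendritic cell-like cells. Both classes were highest on Day 3 and lowest on Day 14. T cell-like cells, a class joined with natural killer cells, had 550 (498 to 606) CPM on Day 7 and 252 CPM on Day 14. The Day 7 interval overlapped the macrophage-like one. At a resolution of 2, 200 natural killer cell-like cells had the highest *Ccr2* of Day 7, with 558 CPM beside 491 CPM in macrophage-like cells. At a 5% mitochondrial limit dendritic cell-like cells were highest on Day 3, with 1181 CPM beside 1059 CPM in macrophage-like cells. At a clustering resolution of 0.5 the Day 14 macrophage-like level was 243 CPM, below the 255 CPM of T cell-like cells. After thinning, 35.1% (33.3% to 36.9%), 19.4% (18.6% to 20.3%), and 13.9% (12.7% to 15.2%) of macrophage-like cells had a *Ccr2* UMI. Fibroblast-like cells gave 0.248%, 0.479%, and 0.0452%, and before thinning the macrophage-like values were 70.6%, 44.3%, and 41.7%. Fibroblast-like cells, the main source of *Ccl2* and *Ccl7*, thus carried almost no *Ccr2*.

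*Ccr1* was highest in neutrophil-like cells among the classes with at least 50 cells, with 1894 (1816 to 1975) CPM on Day 3 and 1229 (1170 to 1289) CPM on Day 7, between which the markers of other classes in these cells also differed, as given above. Macrophage-like cells had 261, 140, and 104 CPM. Within their clusters *Ccr1* was lower on Day 7 than on Day 3 in 3 of 6, with a median log2 ratio of -0.20 beside -0.90 in the class, and in cluster 6 it was 265 CPM on both days. From Day 7 to Day 14 *Ccr1* was lower in 5 of 7 clusters, 2-fold in 4, with a median of -1.01 beside -0.42 in the class. Dendritic cell-like cells had 170, 94.1, and 5.91 CPM, the last from 13 UMIs, and on Day 7 their interval overlapped that of T cell-like cells (77.6 CPM). Over all cells *Ccr1* was 163, 59.3, and 14.3 CPM, and *Ccr2* was 452, 158, and 57.2 CPM, both lower on each later day.

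Each step between days is given beside the same count over all genes. Genes entered such a count, of differences of 2-fold or more, if they reached 50 CPM on either day and had 10 UMIs or more on both. Over all cells, *Ccl8* and *Ccl11* were 2-fold or more higher on Day 7 than on Day 3 (2 of 10, where 3.99% of 3436 genes were), and *Ccl3*, *Ccl4*, *Ccl9*, *Ccr1*, and *Ccr2* were lower (5 of 10, against 10.3%). From Day 7 to Day 14, *Ccl2* and *Ccl11* were higher (2 of 10, against 4.21% of 3042 genes) and *Ccl3*, *Ccl4*, *Ccl6*, *Ccl9*, *Ccr1*, and *Ccr2* were lower (6 of 10, against 5.49%). The median log2 ratio of the 10 genes was -1.10 and -1.26 at these steps, beside -0.30 and -0.05 over all genes compared. *Ccl7* on Day 14 lay just inside 2-fold, at a log2 ratio of 0.96.

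Within macrophage-like cells fewer of the genes passed 2-fold. Of 9 compared on Day 7 against Day 3, *Ccl8* was higher (1, where 1.96% of 3259 genes were) and *Ccl9* and *Ccr2* were lower (2, against 7.76%). On Day 14 against Day 7, *Ccl2*, *Ccl7*, and *Ccl8* were higher (3 of 9, against 3.02% of 3010 genes), by log2 ratios of 1.02, 1.39, and 1.44, and 0 were lower (against 2.96%). The members' median was -0.51 and -0.41, beside -0.25 and 0.00318 over all genes.

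In fibroblast-like cells only *Ccl2*, *Ccl7*, *Ccl8*, and *Ccl11* were abundant enough to compare. *Ccl11* was higher on Day 7 (1 of 4, against 5.72% of 3200 genes), and 0 of 4 were lower, where 12% of genes were. On Day 14 against Day 7, 0 of 4 differed 2-fold, beside 2.52% higher and 3.75% lower among 2773 genes, although all but *Ccl8* were higher, by log2 ratios of 0.63 for *Ccl2*, 0.60 for *Ccl7*, and 0.89 for *Ccl11*. The median of the 4 was 0.52 and 0.62 at the 2 steps, beside -0.30 and -0.06 over all genes. With *Ccl8* at 0.97 on Day 7 and *Ccl11* at 0.89 on Day 14, the count in these cells turned on values close to the threshold.

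**Figure D3:**
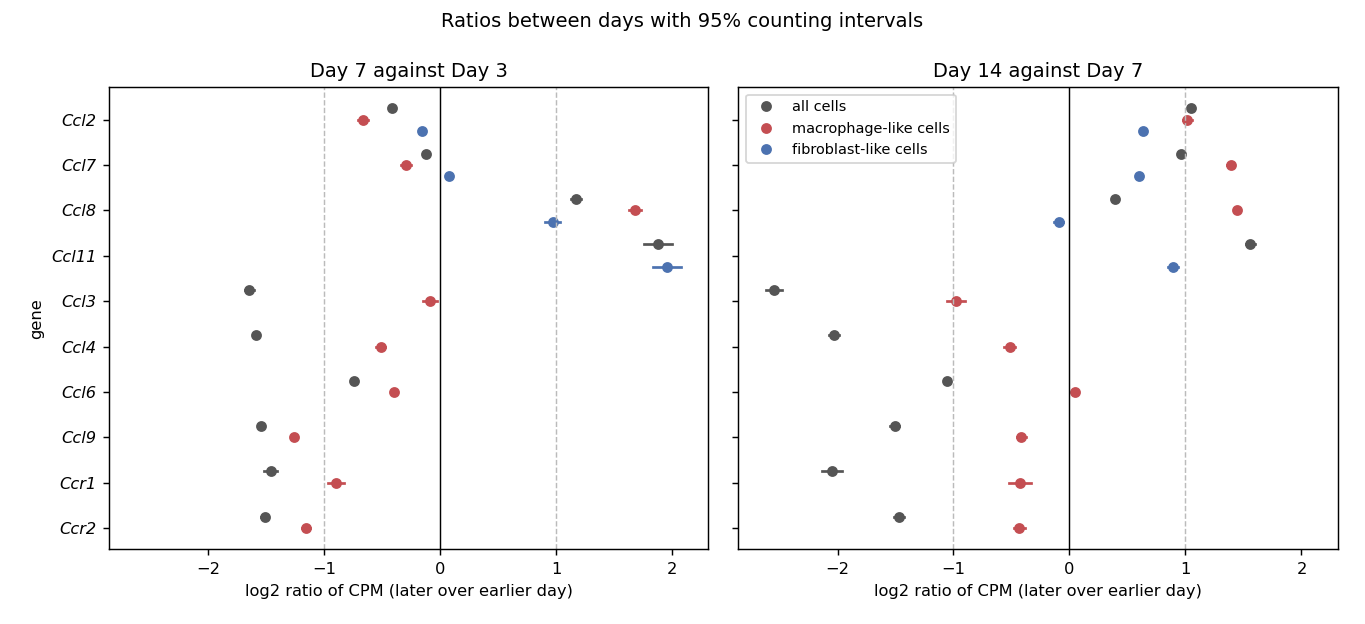
Log2 ratio of CPM for each gene between days (Day 7 against Day 3, and Day 14 against Day 7) in all cells, macrophage-like cells, and fibroblast-like cells, with 95% counting intervals and the 2-fold lines. *Ccl8* lies above 1 at both steps in macrophage-like cells, and *Ccl9* and *Ccr2* lie below -1 at the first.

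The make-up of both classes shifted with time. Macrophage-like cells of Day 3 lay mostly in cluster 6 (47.3%, led by *Arg1* and *Cxcl3*) and cluster 14 (27.3%, led by *Ly6c2* and *Chil3*). On Day 7 they lay mostly in cluster 0 (35.2%, *Hmox1* and *Arg1*), cluster 5 (16.01%, *Cd163* and *Cbr2*), and cluster 2 (15.2%, *Il10* and *Slamf7*). On Day 14 they lay mostly in cluster 2 (45.7%), cluster 15 (19.2%, *Retnla* and *Lyz1*), and cluster 5 (14.1%). Fibroblast-like cells moved likewise from cluster 25 on Day 3 (53.3%, *Saa3* and *Cxcl5*) to cluster 8 on Day 7 (37.1%, *H19* and *Il1rl1*) and cluster 1 on Day 14 (41.6%, *Cilp* and *Hmcn2*).

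The ligands differed between these macrophage-like clusters within each library. *Ccl8* was highest in clusters 5 and 2 on every day, at 2864 and 1664 CPM on Day 7, and both carry the tissue-macrophage markers *Folr2* and *Mrc1* among their leading genes. In clusters 12 and 15 it was 72.2 and 42.2 CPM on that day. *Ccl6* was highest in cluster 5 on Day 3 (3499.8 CPM) and in cluster 15 on Day 14 (3205 CPM), and the intervals of these clusters overlapped on Day 7. *Ccl9* on Day 3 was 1842, 1830, 1755, and 1680 CPM in clusters 5, 6, 2, and 14 and 1448 and 1442 CPM in clusters 12 and 0, and on Day 7 it was highest in cluster 15, at 1285 CPM. *Ccr2* was highest in cluster 12 on Days 3 and 7, at 1890 and 1413 CPM, a cluster led by the monocyte marker *Ly6c2*. Cluster 14, also led by *Ly6c2*, had 1644 CPM of *Ccr2* on Day 3 but 577 CPM on Day 7, below clusters 15 (1104 CPM) and 13 (860 CPM).

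**Figure D4:**
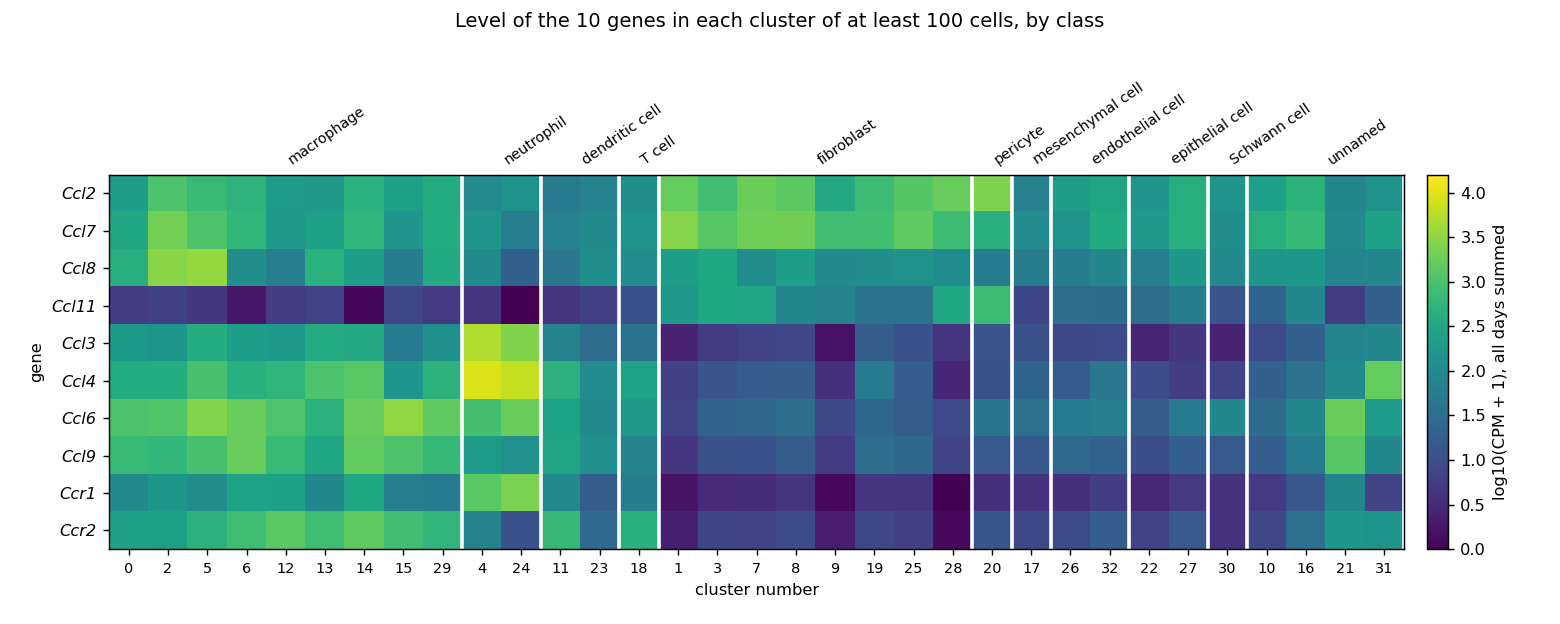
Level of each gene (rows) in each cluster of at least 100 cells (columns, grouped by class), as log10(CPM + 1) on a color scale with the 3 libraries summed. *Ccl8* stands at 3461 and 2859 CPM in macrophage-like clusters 5 and 2, its highest clusters on each day too. The sums mix days in different shares, so the order of other clusters can follow their make-up by day.

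The day differences were also read inside single clusters with enough cells on both days. Between Days 3 and 7 *Ccl8* was higher in 3 of 5 macrophage-like clusters, 2-fold in 1, and in clusters 2 and 6 the intervals of the log2 ratios (0.03 and 0.15) included 0. The median over the 5 clusters was 0.70, beside 1.68 in the class. On Day 14 *Ccl8* was higher than on Day 7 in 5 of 7, 2-fold in 4, and the intervals of the other two included 0. In cluster 2 it was 1633 CPM in 58 cells of Day 3, 1664 CPM on Day 7, and 3911 CPM on Day 14. In cluster 5 it was 1535, 2864, and 6420 CPM. *Ccl9* was lower in 6 of 6 and then in 7 of 7 clusters. *Ccr2* was lower in 6 of 6, 2-fold in 3, and then in 6 of 7, the exception being the cycling cluster 29, with an interval that included 0. *Ccl2* was lower in 6 of 6 clusters on Day 7. On Day 14 it was higher than on Day 7 in 5 of 7, the exceptions being cluster 5, with an interval that included 0, and cluster 12, where it was lower. Day 14 was the highest day for *Ccl2* in cluster 2 alone among the 4 clusters seen on all 3 days, since clusters 0, 5, and 12 had 386, 1105, and 417 CPM on Day 3 and 382, 645, and 118 CPM on Day 14. *Ccl6* was lower in 6 of 6 and then in 4 of 7, and at this second step it was higher in 2 of 7. Its class log2 ratio of Day 14 against Day 7 was 0.05, with a range of -0.60 to 0.16 and a change of sign in 8 of 13 settings.

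**Figure D5:**
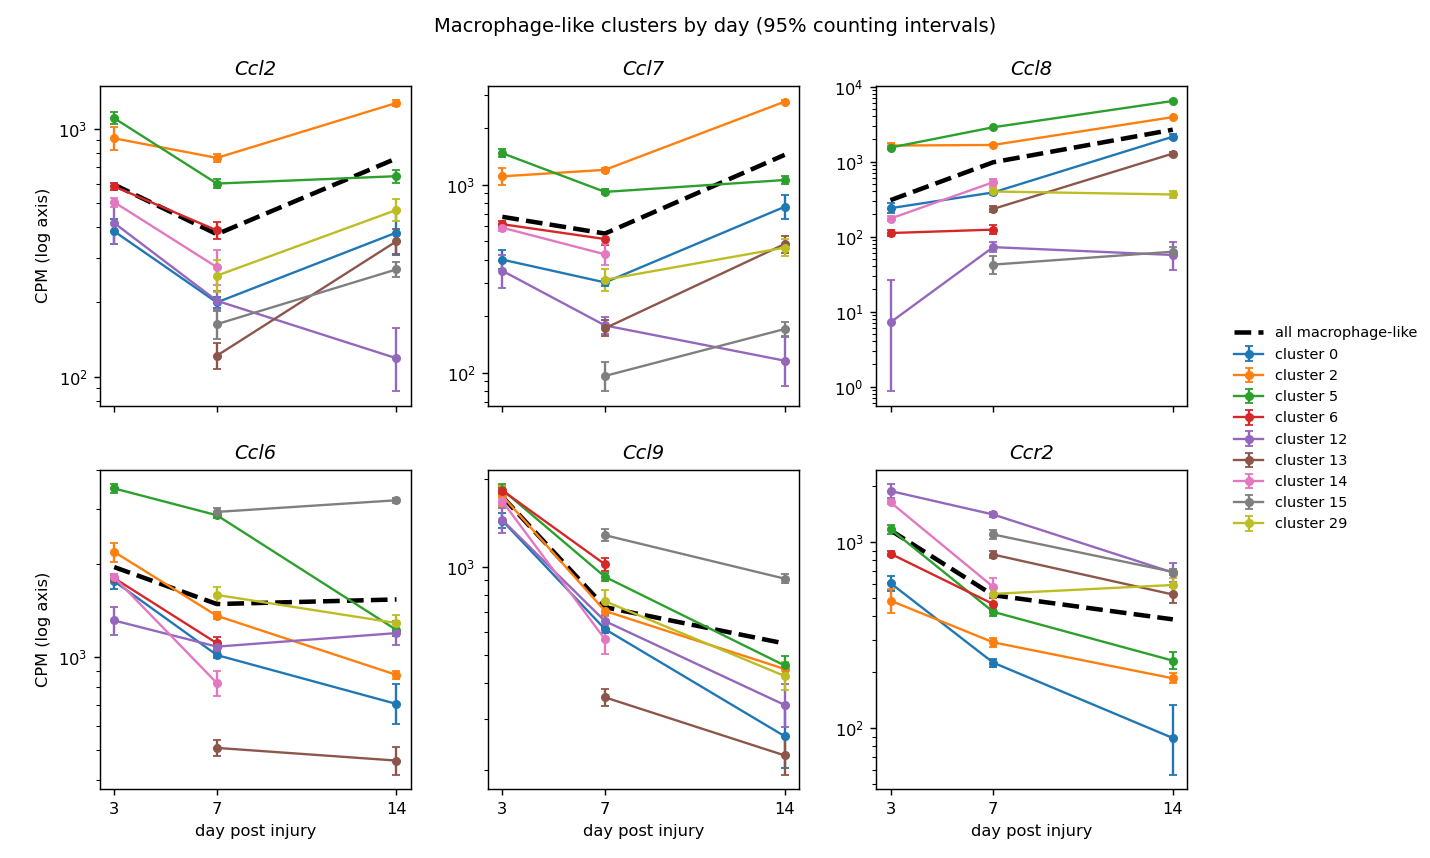
Level (CPM, log axis) of *Ccl2*, *Ccl7*, *Ccl8*, *Ccl6*, *Ccl9*, and *Ccr2* within single macrophage-like clusters against day post injury, with 95% counting intervals and the whole class as a dashed line. *Ccl8* in cluster 0 goes from 387 CPM on Day 7 to 2144 CPM on Day 14, and *Ccr2* in cluster 14 from 1644 CPM on Day 3 to 577 CPM on Day 7.

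Among fibroblast-like clusters on Day 14 against Day 7, *Ccl2*, *Ccl7*, and *Ccl11* were higher in 4 of 4, 2-fold in 3, 1, and 2 of them. The largest *Ccl2* difference was in cluster 7, led by *Akr1c18* and *Efhd1*, from 708 to 2982 CPM. On Day 7 against Day 3, where 2 clusters could be compared, *Ccl2* and *Ccl7* were lower in both and *Ccl8* was higher in both. *Ccl11* could be compared in cluster 25 alone, where it was higher by a log2 ratio of 0.93, under 2-fold and less than the 1.96 of the class. The *Ccl7* ratio of the class, 0.08, ranged from -0.19 to 0.29 over the alternative settings and gives no direction.

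Fibroblast marker RNA was counted in macrophage-like cells, with more on each later day. The 8 fibroblast markers summed to 419, 3950, and 6121 CPM in macrophage-like cells, each of the 8 higher at each step and none at 0, which is 0.623%, 3.27%, and 4.32% of their level in fibroblast-like cells. The same share of the fibroblast-like level would give 0.196, 3.99, and 9.78 CPM of *Ccl11*, close to the 0.0824, 3.62, and 8.81 CPM measured. For *Ccl2* it would give 6.58, 30.9, and 63.3 CPM, and for *Ccl8* 0.671, 6.89, and 8.52 CPM, which leaves 589, 345, and 697 CPM of *Ccl2* and 305, 971, and 2651 CPM of *Ccl8* in macrophage-like cells. In the other direction, macrophage markers in fibroblast-like cells stood at 1.03%, 2.73%, and 0.988% of their macrophage-like level. That share would give 20.01, 40.4, and 15.2 CPM of *Ccl6*, where 13.4, 34.6, and 6.48 CPM were measured, and 11.9, 14.2, and 3.81 CPM of *Ccr2*, where 6.11, 9.45, and 1.11 CPM were measured. It would give 3.13, 26.7, and 26.3 CPM of *Ccl8*, below the 108, 211, and 197 CPM measured in fibroblast-like cells. The levels of *Ccl11* in macrophage-like cells and of *Ccl6* and *Ccr2* in fibroblast-like cells were thus no higher, beyond their intervals, than this share, and are not read as expression.

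The ligands were also counted together in single macrophage-like cells, each thinned to 1000 UMIs, with all clusters of the class pooled. Among cells with a *Ccl2* UMI, 54.3%, 53.5%, and 69.5% also had a *Ccl7* UMI on Days 3, 7, and 14, against 15.8%, 18.4%, and 29.1% of cells without. *Ccl7* and *Ccl8* were paired in the same way, with 16.1%, 42.0%, and 58.8% against 5.54%, 18.7%, and 25.2%. *Ccl3* with *Ccl4* gave 57.1%, 46.8%, and 39.2% against 21.9%, 17.6%, and 11.1%. *Ccl6* with *Ccl9* gave 79.1%, 52.1%, and 45.1% against 58.8%, 32.8%, and 24.7%. For each of these 4 pairs and on each day, the second ligand was thus seen in a larger share of the cells that held the first than of the cells that did not, with intervals that did not overlap.

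The receptor ran the other way. Cells with a *Ccl2* UMI had *Ccr2* in 27.6% (25.5% to 29.8%) on Day 7 and 17.7% (15.3% to 20.3%) on Day 14, against 32.1% (31.0% to 33.3%) and 25.6% (23.7% to 27.5%) of cells without *Ccl2*. On Day 3 the shares, 49.5% (45.8% to 53.2%) and 53.7% (51.4% to 56.1%), had overlapping intervals. *Ccr1* with *Ccr2* gave 57.1% against 51.4% on Day 3, 36.1% against 30.5% on Day 7, and 18.8% against 23.5% on Day 14, with overlapping intervals on Days 3 and 14. In fibroblast-like cells *Ccl2* and *Ccl7* were also found together, with 74.3%, 70.5%, and 72.5% against 37.3%, 40.4%, and 35.3%. Cells of a library share its preparation and are not replicates. The pooled clusters also differ in level. On Day 7 cluster 12 had 202 CPM of *Ccl2* and 1413 CPM of *Ccr2*, and cluster 2 had 764 and 290 CPM. Pairs within single clusters were not tested, so shares between clusters and within them cannot be told apart here.

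Over the 33 clusters of at least 100 cells, the genes whose log2(CPM + 1) was most like that of each member were listed as a description. The points share libraries and depth. *Ccl7* was nearest to *Ccl2* (Pearson r of 0.89) and *Ccl4* was among the nearest to *Ccl3* (0.96). *Ccl8* was nearest to *Gas6* (0.79), *Ccl11* to *C1s1* (0.94), and *Ccl3* to *Csf3r* (0.97). *Ccl6* was nearest to *Itgam* (0.98) and *Ccl9* to *Cd300c2* (0.97), and *Ccl6* and *Ccl9* had 0.95 with each other. *Ccr1* was nearest to *Osm* (0.98) and *Ccr2* to *Ms4a6c* (0.96). *Ccl8* had the loosest nearest neighbor of the 10.

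The other CC chemokine genes compared, 16 in number, were mostly sparse. Of those abundant enough to compare over all cells, 0 were 2-fold or more higher at either step, while *Ccl5* was lower on Day 7 than on Day 3 (52.0 and 14.9 CPM) and *Ccrl2* was lower on Day 14 than on Day 7 (104 and 42.7 CPM). In macrophage-like cells 4 could be compared at each step and 0 differed 2-fold. *Ccl24* (eotaxin-2), the other eotaxin detected, was 28.0, 23.6, and 17.9 CPM over all cells on Days 3, 7, and 14. In macrophage-like cells, its highest class, it was 79.7, 81.3, and 125 CPM, highest on Day 14. It had 163 CPM in *Cd163*-led cluster 5 over the 3 libraries together, whereas *Ccl26* had 0 UMIs. With the 3 libraries together, *Ccl22* (1982 CPM) and *Ccl5* (2543 CPM) were highest in the *Ccr7*-led dendritic cell-like cluster. By class and day, *Ccl5* was highest in dendritic cell-like cells on Days 3 and 14 (286 and 1440 CPM). On Day 7 it was highest in T cell-like cells, with 547 CPM beside 192 CPM in dendritic cell-like cells. *Ackr1*, the scavenging receptor of venules, was highest in an endothelial cell-like cluster (406 CPM, libraries together) and was 3.45, 16.5, and 33.6 CPM over all cells.

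Some clusters stayed without a name, with 2.68%, 11.7%, and 4.14% of cells and 0.964%, 17.8%, and 1.86% of UMIs on Days 3, 7, and 14. Clusters 10 and 21 carried 8 fibroblast and 10 macrophage markers. They were left out of those classes because their leading genes held a listed marker of another class and none of their own. It was *Crabp1*, of the mesenchymal list, in cluster 10 and *Il7r*, of the T cell list, in cluster 21. Among them, cluster 21 of 584 cells, led by *Mmp12*, had 1721 CPM of *Ccl6* and 1262 CPM of *Ccl9* over the 3 libraries together. Cluster 10 of 1388 cells, with *Acta2* and *Lrrc15* among its leading genes, had 1326 of them on Day 7. It had 234 CPM of *Ccl2* and 435 CPM of *Ccl7* on that day, where the fibroblast-like clusters had at least 567 and 675 CPM. At a clustering resolution of 2, fibroblast-like cells of Day 7 numbered 5892 rather than 4594. Their *Ccl2* and *Ccl7* were then 784 and 1159 CPM, beside 944 and 1371 CPM in the main setting. The 138 cells of cluster 31, led by *Siglech*, had 1603 CPM of *Ccl4*, again with the libraries together.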

How the data were processed

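Single-cell RNA sequencing of wounded mouse skin gave 1 library each for Days 3, 7, and 14 post injury. The authors deposited raw UMI counts per gene and barcode, made with Cell Ranger 6.0.0 on mm10 according to the submitters' processing notes. How the authors treated reads that match 2 genes was not given in the sources used here. The library totals were 38133650, 120940799, and 112713257 UMIs over 5158, 22924, and 16611 barcodes, and pairs of libraries shared 43, 19, and 111 barcodes.

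Genes were matched by Ensembl ID, and 32158 of 32285 had a symbol. A barcode was kept if it held 200 genes and 500 UMIs or more and if no more than 10% of its UMIs were mitochondrial. Simulated doublets were used to score cells, and 0.5 of the expected number was removed (92, 1978, and 962 cells, or 2.07%, 9.17%, and 6.65%). Leiden clustering (leidenalg 0.10.2, resolution 1, 2000 variable genes, 30 components) left out the 10 genes, the rest of the CC chemokine list, and mitochondrial and ribosomal genes, and gave 36 clusters of 37460 cells. Each cluster was named from at least 3 markers of a fixed list. A cluster stayed unnamed where a second class scored close or where another class had more listed markers among its leading genes. The same held for few UMIs with no own marker on top. The limit of 25% of cells for a leading gene and the joining of T cells with natural killer cells were set after the clusters were seen and before the values of the 10 genes were computed.

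The UMIs of a class in a library were added up and given as CPM with exact Poisson intervals. Ratios had exact conditional binomial intervals and shares Clopper-Pearson intervals, all at 95%. For shares, each cell was thinned to 500 UMIs, and for pairs of genes to 1000 UMIs, leaving out shallower cells. No p-value was computed. The 10 genes and all lists were chosen with earlier results of these data known. The genes named are the 10, a list of 16 other CC chemokine genes, the 3 most similar genes of each member, and leading genes of clusters. The values of 1 listed gene are not reported here.

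The computation of the ratio and its interval was checked on simulated data for Day 7 against Day 3 over all cells (3223 genes). Counts were drawn with counting error only, the error that the interval assumes, so coverage near 95% follows from the design. Variation between cells or libraries was not simulated. Intervals held the true value for 95.2% of unchanged genes, 94% of genes changed by a log2 ratio of 1.5, and 92% of those changed by 3, and every gene simulated at 1.5 or more was called 2-fold. The alternatives comprised other scalings, filters, clusterings, and class rules. Python 3.11.15, numpy 2.4.6, scipy 1.17.1, pandas 2.3.3, and matplotlib 3.10.9 were used.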

Additional observations from a re-analysis of the deposited data

How the results depend on the processing

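No paired analysis was possible because each day had 1 library, and for the same reason no replicate could be left out. Of 22 ratios between days that were 2-fold or more, 19 stayed so under every alternative and 0 changed sign. The exceptions were *Ccl6* over all cells and *Ccl2* in macrophage-like cells, both for Day 14 against Day 7, and the *Ccr2* ratio of macrophage-like cells for Day 7 against Day 3, which ranged from -1.46 to -0.91. Of 24 ratios under 2-fold, 6 changed sign under some alternative, among them *Ccl2* in fibroblast-like and *Ccl3* in macrophage-like cells on Day 7 against Day 3, *Ccl6* in macrophage-like cells on Day 14 against Day 7 (-0.60 to 0.16) and *Ccl7* in fibroblast-like cells on Day 7 against Day 3 (-0.19 to 0.29). The counts of genes differing 2-fold over all cells (7 and 8) and in macrophage-like cells (3 and 3) stayed within 1.5 times. In fibroblast-like cells the count on Day 7 against Day 3 was 1, and it was 3 with library totals taken without the 50 most abundant genes or with doublets kept and 2 with median-of-ratios scaling or each library clustered alone. On Day 14 against Day 7 it was 0, and it was 2 with doublets kept. It was 1 for those totals, median of ratios, mitochondrial limits of 5% or 20%, at least 500 genes, resolution 2, libraries clustered alone, cells classed singly, and unnamed clusters put in the class of their markers. This last alternative was chosen after seeing the data. *Ccl8* and *Ccl11* lay near the threshold in these settings. Of the 10 genes, 7 were highest in macrophage-like cells on Day 14 among the classes with at least 50 cells. With cells classed singly this count was 4 (without *Ccl6*, *Ccl9*, and *Ccr2*), and the cause was not tested. At a resolution of 0.5 *Ccr2* was highest in T cell-like cells. The 21 neutrophil-like cells of Day 14 were not ranked, and the same count over all genes is not given here. Genes under 50 CPM in both libraries could not be compared at this depth.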
